A study of Mus musculus with 20 samples.

Results

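RNA sequencing of Ly6Chi and Ly6Clo monocyte-derived macrophages (MoMac) from the fibrotic liver of 5 mice exposed to Ac-6-FP is described here, with both subsets of each liver compared within the mouse. These are 10 of the 20 libraries of the series, 5 Ly6Chi and 5 Ly6Clo, from mice numbered 16 to 20, and they were chosen by their labels and not by any measured value. All mice were C57BL/6 males with liver fibrosis from 4 weeks of CCl4, a hepatotoxin. Ac-6-FP is a synthetic ligand that occupies MR1, the molecule presenting microbial metabolites to mucosal-associated invariant T (MAIT) cells, without activating these cells. It was injected shortly before the last CCl4 dose and daily over the following days, and the other 10 libraries came from mice 11 to 15, which received CCl4 in the same way and DMSO in PBS as vehicle. The sort kept cells positive for CD11b and F4/80 and negative for CD3, CD11c and Ly6G, and split them by surface Ly6C, so that each library is a bulk measurement of a gated population and not of a single cell type. The oil-injected state was not analysed here.

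Ly6Chi monocytes enter injured tissue through the chemokine receptor CCR2, carry stores of inflammatory mediators and arise from dividing bone marrow progenitors. In the liver they can turn into Ly6Clo macrophages, a population associated with the removal of scar matrix, while a separate kind of Ly6Clo monocyte patrols the lumen of vessels. Antigen presentation on MHC class II molecules is a property of macrophages, dendritic cells and B cells rather than of newly arrived monocytes.

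Levels are normalised counts, the reads of a gene divided by 1 size factor per library, and differences are log2(normalised count + 1) of Ly6Chi minus Ly6Clo MoMac, averaged over the 5 mice. Of 59311 annotated genes, 15920 reached a mean of 10 in at least 1 of the subsets and were tested with limma, with the mouse as a block. At an adjusted p (Benjamini-Hochberg) under 0.05, 721 genes (4.53%) differed between the subsets, 213 (1.34%) with higher levels in Ly6Chi and 508 (3.19%) with higher levels in Ly6Clo MoMac. The median difference of genes higher in Ly6Chi MoMac was 1.26, and that of genes higher in Ly6Clo MoMac was -3.38. In 715 of the 721 genes all 5 mice differed in the same direction, which follows largely from calling them by a paired test on these mice. In 633 of the 721 the values of the subsets did not overlap, as they did not in 1170 of all genes tested. No read was counted in any Ly6Chi library for 85 of the 721, and in any Ly6Clo library for 8. Such genes entered the test only through the other subset. The shares of all genes tested with 1 direction in every mouse, or with no read in a subset, are not given here. The direction of the calls moved with the scaling, since the median difference of all genes was -0.13 as deposited, 0.02 after upper quartile rescaling and 0.09 after quantile normalisation, and 42.9% and 40.4% of the calls were then higher in Ly6Chi MoMac, against 29.5% as deposited. The count was 439, 459, 790, 381 and 372 without mouse 16, 17, 18, 19 and 20. On the recovered reads edgeR called 391 genes, 389 of them among the 721, and DESeq2 called 1983, 720 of them among the 721.

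**Figure D1:**
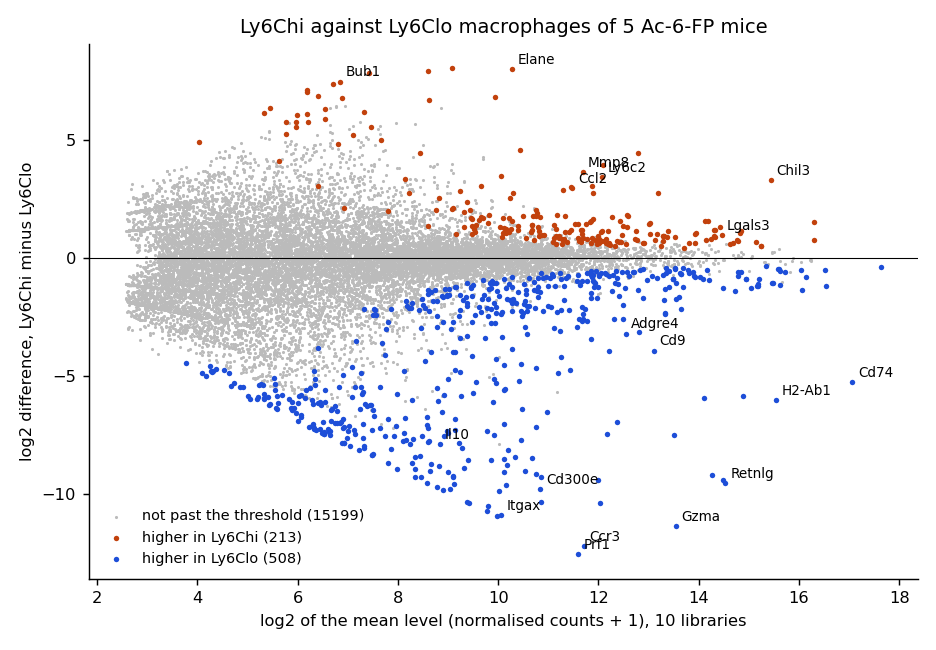
Log2 difference between Ly6Chi and Ly6Clo MoMac (vertical) against the log2 mean level over the 10 Ac-6-FP libraries (horizontal), 1 point a gene. The 508 genes higher in Ly6Clo MoMac reach differences of -12.58 (Prf1), while the 213 genes higher in Ly6Chi MoMac have a median of 1.26 and 58 of them exceed 2.

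The libraries held 11242457 to 18682437 reads on genes. Genes with a value above 0 numbered 13411.0 ± 1604.3 (SD, n = 5) in Ly6Chi and 14023.6 ± 1880.2 (SD, n = 5) in Ly6Clo MoMac, and were fewer in Ly6Chi MoMac in 5 of 5 mice, with a mean difference of -612.6 ± 795.1 (SD), or -263.5 ± 174.4 without mouse 19 (two-sided exact paired permutation test, p = 0.0625, the smallest p that 5 mice allow). Abundant genes could read 0 in single libraries, since of 7090 genes with a median of 100 or more, 36 to 493 were at 0 in a library, and both libraries of mouse 18 held the most. Adjusted for genes detected, meaning those above 0 in a library, limma called 155 genes, and of 122 called genes that were followed across the fits, 52 did so. A value of 0 allows 3 reads, which corresponds to 1.87 to 3.59 normalised counts and covers counting error only. In bulk samples, fewer cells of a type and less RNA per cell cannot be told apart.

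The labels were first set against the genes of the sort. Ly6c2, which encodes Ly6C, read 7589, 6649, 5641, 10012 and 9428 in the Ly6Chi libraries of mice 16 to 20, and 784, 575, 1014, 552 and 767 in their Ly6Clo libraries. All Ly6Chi values lay above all Ly6Clo values, 10.6-fold on average (log2 difference 3.41, SE 0.23, adjusted p = 0.000491). Ccr2, the receptor for CCL2, was also higher in Ly6Chi MoMac, at 14677 against 6817, without overlap (2.15-fold, log2 difference 1.12, SE 0.16, adjusted p = 0.00963, and 0.128 when adjusted for genes detected). Ly6c1, a near copy that shares stretches of its transcript with Ly6c2, was 8.44-fold higher (adjusted p = 0.0432, up to 0.161 without mouse 16, 17, 19 or 20), and how the counting split their reads is not known. Transcripts of the positive gate were abundant in both subsets. Itgam, encoding CD11b, had a log2 difference of -0.62 (SE 0.20, adjusted p = 0.15), Adgre1, encoding F4/80, one of -0.47 (SE 0.26, adjusted p = 0.407), and Csf1r, the receptor that macrophages need for survival, one of -0.73 (SE 0.20, adjusted p = 0.101), and the subsets overlapped for all 3.

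Transcripts of the negative gate were not all low in the Ly6Clo libraries. Itgax, which encodes CD11c, was at 0 in all 5 Ly6Chi libraries and read 1228, 3302, 1038, 2055 and 3003 in the Ly6Clo libraries, so that it was at least 887-fold higher in Ly6Clo MoMac (adjusted p = 0.000254). Cd3e, a chain of the T cell receptor complex, was too low to be tested, with 0 in 8 libraries and 7.7 and 11.1 in the Ly6Clo libraries of mice 19 and 20. Ly6g, the neutrophil surface marker of the gate, ranged from 0.8 to 16.2 in Ly6Chi and from 0 to 92.8 in Ly6Clo libraries. Timd4, a marker of resident Kupffer cells, was at 0 in 9 libraries and at 6.6 in the remaining one. The Ly6Clo libraries therefore hold CD11c transcripts although the cells were sorted as CD11c negative, and they also hold transcripts of NK cells, basophils and dendritic cells, described further on.

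**Figure D2:**
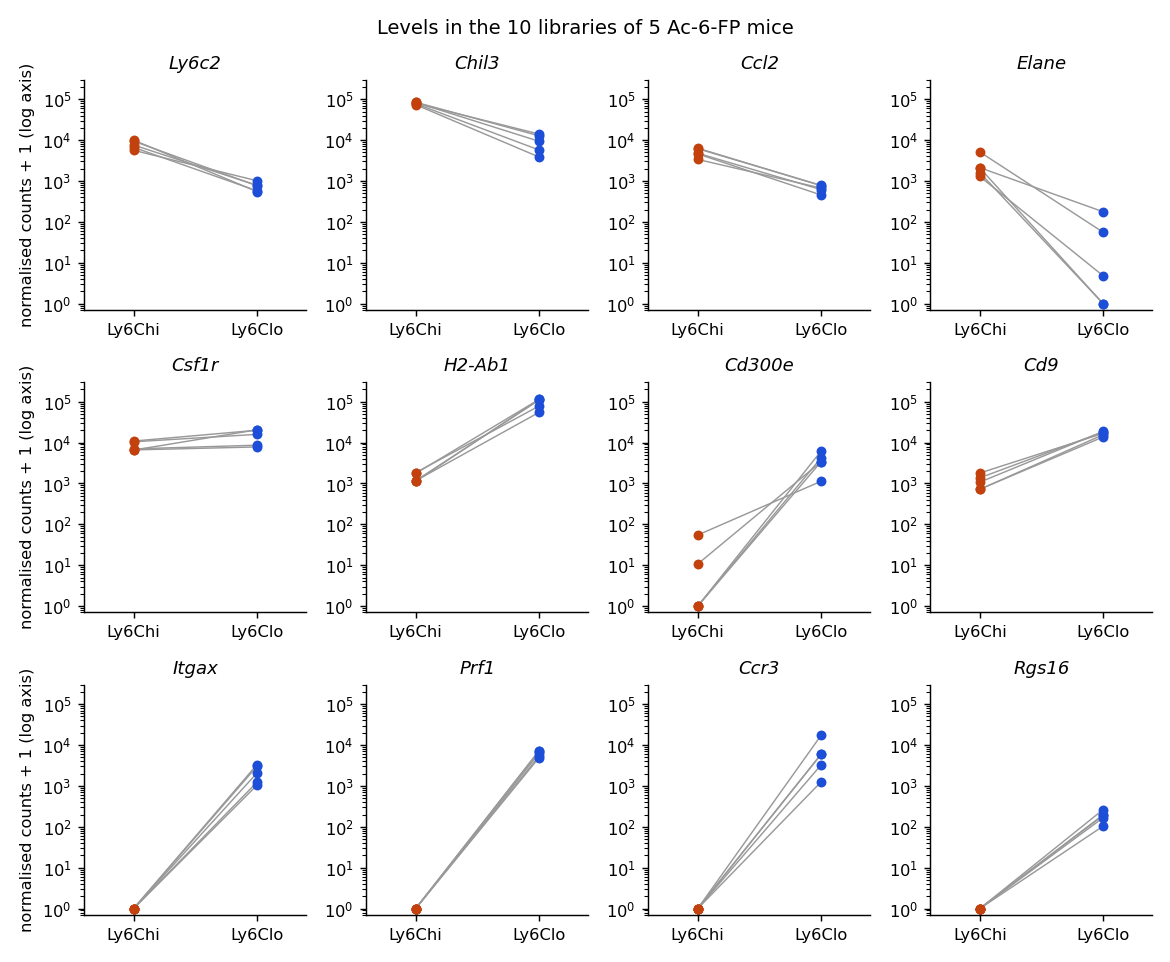
Normalised counts + 1 (log axis) of 12 genes in the Ly6Chi and Ly6Clo libraries of the 5 Ac-6-FP mice, with a line joining the libraries of a mouse. Ly6c2, Chil3 and Ccl2 are higher in every Ly6Chi library, Csf1r overlaps, and Itgax, Prf1, Ccr3 and Rgs16 are at 0 in all Ly6Chi libraries.

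Genes of classical monocytes were higher in Ly6Chi MoMac. Of the 12 on the list, 10 passed the threshold in this direction (background 1.34%) and none in the other, with a median difference of 1.59 against -0.13 for all genes tested. The 10 include Ly6c2, which encodes the marker of the sort, so that its call was set by the gate. Chil3, a secreted chitinase-like protein of monocytes, read 73492, 83669, 84689, 77941 and 79886 in Ly6Chi and 3865, 9378, 12774, 5744 and 14106 in Ly6Clo libraries, an 8.71-fold difference (log2 difference 3.28, SE 0.24, adjusted p = 0.000681). F13a1, the transglutaminase that crosslinks fibrin, was 18.9-fold higher (log2 difference 4.42, SE 0.34, adjusted p = 0.000723), at 13537 ± 2454 against 716 ± 360 (SD, n = 5). Mgst1, a glutathione transferase, was higher with 13298 to 18750 in Ly6Chi and 2268 to 2564 in Ly6Clo libraries (log2 difference 2.72, SE 0.10, adjusted p = 4.38e-05). Vcan, a matrix proteoglycan, read 28.7, 283, 46.3, 146 and 339 in Ly6Chi libraries and 0 in all Ly6Clo libraries, at least 55.7-fold higher, and its adjusted p of 0.0108 became up to 0.0608 without mouse 19 or mouse 20, 0.161 with edgeR and 0.121 when adjusted for genes detected. Plac8, Ms4a4c, Hp and Ifitm6 were 1.74- to 2.66-fold higher. Thbs1, thrombospondin-1, had overlapping values and did not pass (adjusted p = 0.393).

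Granule genes that myeloid progenitors make ahead of their release from bone marrow were present in the Ly6Chi libraries. Elane, neutrophil elastase, had the highest positive difference among the genes named by rule, reading 1291, 1595, 2120, 2090 and 5132 in Ly6Chi and 3.8, 0, 176, 0 and 54.7 in Ly6Clo libraries (52.2-fold, 173-fold without mouse 18, log2 difference 7.97, SE 1.08, adjusted p = 0.00729). Prtn3, proteinase 3, was 17-fold higher in Ly6Chi MoMac (log2 difference 4.54, SE 0.47, adjusted p = 0.00254), with 2068 to 4405 against 21.8 to 349. Mpo, myeloperoxidase, read 318 to 4591 in Ly6Chi libraries and 0, 103 or 1283 in Ly6Clo libraries, which overlap (log2 difference 6.79, SE 1.38, adjusted p = 0.038), and it missed the threshold without mouse 16, 17, 18 or 19 (adjusted p up to 0.131). These 3 of the 10 progenitor genes were the ones that passed (background 1.34%), against 2 with edgeR and 1, Prtn3, when adjusted for genes detected (adjusted p = 0.0881 for Elane and 0.323 for Mpo with limma), and the median of the list was 0.26. Ctsg, the granule protease cathepsin G, was 5.87-fold higher without passing (adjusted p = 0.0853). The progenitor markers Kit and Cd34 pointed the other way, with Kit at 0 in all Ly6Chi libraries and up to 236 in Ly6Clo libraries (adjusted p = 0.0812) and Cd34 at 50.2 against 378 (adjusted p = 0.11).

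The 3 granule genes share a short sequence upstream of their start site. The letters GAGGAAGT (ACTTCCTC on the other strand), a core bound by ETS family factors such as PU.1, occur in the 250 bases upstream of the first RefSeq start of Elane, Prtn3 and Mpo and of none of the other 5 progenitor genes with a promoter entry, and in 2.44% of 27025 promoters. They are shown because these were the members that differed, with the core in capitals, 5′ to 3′ on the gene's strand (GRCm38.p6, RefSeq). The stretches are chr10:79886062-79886311 for Elane, chr10:79879417-79879666 for Prtn3 and chr11:87793534-87793783 for Mpo, all on the plus strand. The letters were set together with these 3 genes, so that their absence from the other 5 is no test. Binding was not measured.
Elane: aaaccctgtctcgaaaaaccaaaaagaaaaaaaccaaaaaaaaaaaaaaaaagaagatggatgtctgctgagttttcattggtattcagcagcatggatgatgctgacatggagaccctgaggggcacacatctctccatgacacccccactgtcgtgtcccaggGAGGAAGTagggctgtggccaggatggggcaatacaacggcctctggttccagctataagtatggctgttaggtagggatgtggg
Prtn3: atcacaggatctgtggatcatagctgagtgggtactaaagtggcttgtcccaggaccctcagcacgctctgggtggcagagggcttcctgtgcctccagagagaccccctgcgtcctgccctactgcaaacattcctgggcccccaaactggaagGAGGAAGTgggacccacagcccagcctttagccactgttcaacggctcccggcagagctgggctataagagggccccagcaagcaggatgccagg
Mpo: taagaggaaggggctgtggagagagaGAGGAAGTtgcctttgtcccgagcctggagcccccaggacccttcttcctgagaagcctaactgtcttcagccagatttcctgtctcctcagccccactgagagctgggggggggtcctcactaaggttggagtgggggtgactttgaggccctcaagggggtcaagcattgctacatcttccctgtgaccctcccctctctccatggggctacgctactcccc

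Some genes of cell division were also higher in Ly6Chi MoMac. Of 14 mitotic and replication genes 3 passed the threshold, all higher in Ly6Chi MoMac (background 1.34%), and the median of the list was 1.62. Birc5, survivin, read 1239, 1069, 1585, 1122 and 2019 in Ly6Chi and 73.8, 307, 409, 177 and 79.8 in Ly6Clo libraries (6.72-fold, log2 difference 3.02, SE 0.47, adjusted p = 0.0122). Aurkb, a kinase of chromosome segregation, was 4.68-fold higher (adjusted p = 0.01) and Stmn1, a regulator of microtubules, 3.18-fold higher (adjusted p = 0.0263). Each of the 3 depended on single mice, with adjusted p-values up to 0.0526 for Birc5 without mouse 16 or 19, 0.0593 for Aurkb without mouse 20 and 0.109 for Stmn1 without mouse 16, 19 or 20, and the list had 1 to 5 calls over the fits on 4 mice. Adjusted for genes detected, limma called 0 of the 14. Rrm2, a subunit of ribonucleotide reductase, had separated values and an adjusted p of 0.0859, whereas Pcna, the replication clamp, overlapped (log2 difference 0.23, adjusted p = 0.613).

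Among the 12 genes with the largest positive differences, taken from called genes with a symbol, the same direction in 5 of 5 mice and a mean of 100 or more in Ly6Chi MoMac, were Bub1, Ttk, Ccne2, Kif20a and Ccnf. They were not on the list of 14 and have no list test, and of the 5 only Ccne2 passed with edgeR or when adjusted for genes detected (adjusted p = 0.0247 and 0.0341). Bub1, a kinase of the spindle checkpoint, read 32.5, 309, 158, 288 and 350 in Ly6Chi and 0 in all Ly6Clo libraries, at least 75.1-fold higher (adjusted p = 0.00662). Ttk, another checkpoint kinase, read 53.2 to 256 in Ly6Chi libraries against 0 in all Ly6Clo libraries, at least 47.2-fold higher (adjusted p = 0.00678). Ccne2, a cyclin of the start of S phase, read 142 to 553 in Ly6Chi libraries and at most 2.6 in Ly6Clo libraries (log2 difference 7.84, SE 0.94, adjusted p = 0.00473). Kif20a, a kinesin of cytokinesis, and Ccnf, a cyclin of the G2 phase, were also higher. Kif20a read 422 to 1110 in Ly6Chi libraries and 93.4 and 150 in the Ly6Clo libraries of mice 19 and 20. Ccnf read 135 to 229 in Ly6Chi libraries and 51.0 in the Ly6Clo library of mouse 20. The remaining Ly6Clo libraries were at 0 for each gene. The adjusted p-values were 0.0235 and 0.02 and exceeded the threshold without mouse 16 or 17, and for Ccnf also without mouse 19 (up to 0.0864 and 0.0863). The remaining genes of this set besides Elane, Mpo and Vcan were Atrnl1, Arhgef37, Gpld1 and Hal, with log2 differences of 7.92, 7.10, 6.78 and 6.15. Hal encodes histidine ammonia-lyase, and Gpld1 a phospholipase that releases GPI-anchored proteins. Atrnl1, Gpld1 and Hal missed the threshold without mouse 19 or 20, Gpld1 and Hal also without mouse 17 and Hal without mouse 16 (adjusted p up to 0.055, 0.0604 and 0.121).

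The start regions of Bub1, Ttk and Ccnf each hold 2 copies of CCAAT, the box bound by the factor NF-Y that many mitotic genes carry. Within 250 bases upstream of the first RefSeq start, CCAAT or ATTGG, its other strand, occurs in 34.5% of 27025 promoters and at least 2 copies in 10.4%. Of 11 listed mitotic genes with an entry 9 hold it, and Birc5 does not. The 150 bases upstream of the start are given for the 3 genes, with the box in capitals on either strand (GRCm38.p6, RefSeq), at chr2:127831860-127832009 on the minus strand for Bub1, chr9:83834539-83834688 on the plus strand for Ttk and chr17:24251410-24251559 on the minus strand for Ccnf. Ccne2 and Kif20a have no entry among these promoters. The letters are a description and show no binding.
Bub1: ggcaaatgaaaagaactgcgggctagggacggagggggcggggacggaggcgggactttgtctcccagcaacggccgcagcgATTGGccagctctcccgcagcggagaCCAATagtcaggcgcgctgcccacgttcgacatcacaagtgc
Ttk: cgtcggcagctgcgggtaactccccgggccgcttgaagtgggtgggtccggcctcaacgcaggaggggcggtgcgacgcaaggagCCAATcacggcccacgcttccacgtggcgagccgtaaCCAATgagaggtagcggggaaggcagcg
Ccnf: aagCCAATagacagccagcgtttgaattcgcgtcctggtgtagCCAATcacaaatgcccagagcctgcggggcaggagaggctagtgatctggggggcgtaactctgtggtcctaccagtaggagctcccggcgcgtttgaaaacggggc

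Chemokine genes were split between the subsets, with 2 of 14 higher in Ly6Chi (14.3%, background 1.34%) and 3 higher in Ly6Clo MoMac (21.4%, background 3.19%). Ccl2, the main attractant of CCR2-positive monocytes, read 6156, 4781, 6364, 3375 and 4604 in Ly6Chi and 782, 615, 769, 670 and 455 in Ly6Clo libraries (7.68-fold, log2 difference 2.93, SE 0.18, adjusted p = 0.000254). Ccl7, a second ligand of CCR2, was higher in Ly6Chi MoMac from low levels, at 37.0 to 170 in Ly6Chi libraries and at 49.4 in the Ly6Clo library of mouse 17 with 0 in the other 4 (adjusted p = 0.0427, up to 0.16 without mouse 16, 18, 19 or 20). Ccl4, a chemokine that NK cells also make, was 5.22-fold higher in Ly6Clo MoMac (adjusted p = 0.000762), Cxcl2, an attractant of neutrophils, 5.28-fold (adjusted p = 0.00847) and Cxcl16, the ligand of CXCR6 on T and NK cells, 11.1-fold (log2 difference -3.33, SE 0.35, adjusted p = 0.00264). Receptors for homing followed with Ccr1 and Ccr2 higher in Ly6Chi MoMac and Fpr1, the receptor for formylated peptides, 5.95-fold higher in Ly6Clo MoMac (adjusted p = 0.000723), 3 of 11 genes (background 4.53%). Ccr1, at 5948 against 2702, had an adjusted p of 0.0109 that became 0.0563 without mouse 20. Adjusted for genes detected, neither Ccr1 nor Ccr2 passed (limma adjusted p = 0.131 and 0.128).

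Mmp8, Msr1, Lgals3, Fcgr3, C3 and Cfp were also higher in Ly6Chi MoMac, but more of the called members of their lists were higher in Ly6Clo MoMac. The calls in favour of Ly6Chi and Ly6Clo MoMac were 1 and 2 of 10 matrix protease and inhibitor genes, 1 and 2 of 11 efferocytosis and scavenger receptors, 1 and 4 of 11 scar-associated macrophage genes, 1 and 2 of 5 Fc gamma receptor genes and 2 and 5 of 10 complement genes (background 1.34% and 3.19%). Mmp8, neutrophil collagenase, read 5789, 6850, 5710, 7254 and 4795 in Ly6Chi and 371, 488, 648, 466 and 522 in Ly6Clo libraries (12.2-fold, log2 difference 3.61, SE 0.19, adjusted p = 0.00014). Msr1, a scavenger receptor for modified lipoproteins, was 5.35-fold higher (adjusted p = 0.00522), Lgals3, galectin-3, 1.91-fold (adjusted p = 0.00258), Fcgr3, an activating receptor for IgG, 2.13-fold (adjusted p = 0.0133), C3, the central complement component, 2.54-fold (adjusted p = 0.0274) and Cfp, properdin, 1.96-fold (adjusted p = 0.0171). Without mouse 16, 17 or 19 the last 3 missed the threshold, as did C3 and Cfp without mouse 20 (adjusted p up to 0.0578, 0.108 and 0.0799). Adjusted for genes detected, Msr1, Fcgr3, C3 and Cfp missed it (limma adjusted p = 0.0858, 0.156, 0.228 and 0.201). Trem2, a lipid receptor of scar-associated macrophages, was 2.02-fold higher in Ly6Chi MoMac with overlap and did not pass (adjusted p = 0.136).

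Genes of patrolling monocytes were higher in Ly6Clo MoMac. Of 10 tested, 6 passed in this direction (background 3.19%) and none in the other, with a median difference of -3.30. Cd300e, an activating receptor, read 3390, 4218, 1130, 6176 and 3397 in Ly6Clo libraries and 0, 0, 53.8, 0 and 9.7 in Ly6Chi libraries (288-fold, 1770-fold without mouse 18 and 191-fold without mouse 19, log2 difference -9.81, SE 1.21, adjusted p = 0.00522). Adgre4, an adhesion receptor related to F4/80, was 9.09-fold higher (log2 difference -3.22, SE 0.15, adjusted p = 0.000124), Treml4 6.88-fold (adjusted p = 0.000721), Ear2, a ribonuclease, 5.88-fold (adjusted p = 0.00847) and Eno3, an enolase, 49.1-fold (adjusted p = 0.0118), all without overlap. Fabp4, a fatty acid carrier, was 10-fold higher (16.8-fold without mouse 18, adjusted p = 0.0207, up to 0.0946 without mouse 16, 17, 19 or 20). Ace and Spn, further markers of these monocytes, missed the threshold at 18.3- and 5.74-fold (adjusted p = 0.076 and 0.104). The regulator of their survival, Nr4a1, had a log2 difference of -0.03 (SE 0.16, adjusted p = 0.953), with 10020 to 16963 in Ly6Chi and 8301 to 20924 in Ly6Clo libraries, and Cx3cr1 one of -0.82 (SE 0.22, adjusted p = 0.0925). Of the 6 genes 2 passed when adjusted for genes detected.

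Genes of MHC class II presentation were higher in Ly6Clo MoMac. Of 10 genes of the pathway 9 were higher in Ly6Clo MoMac (background 3.19%), with a median difference of -4.73, and the summed level of the list was 44459.8 to 57332.0 in Ly6Chi and 362423.3 to 669346.1 in Ly6Clo libraries. H2-Ab1, the beta chain of I-A, read 113603, 109171, 113378, 54743 and 78253 in Ly6Clo and 1120, 1164, 1759, 1164 and 1834 in Ly6Chi libraries (66.6-fold, log2 difference -6.04, SE 0.20, adjusted p = 4.38e-05). Its partner H2-Aa differed 58.5-fold and H2-Eb1, the beta chain of I-E, 58.3-fold (log2 differences -5.88 and -5.94), while Cd74, the invariant chain that guards the peptide groove, differed 38.9-fold at a mean of 267757 in Ly6Clo MoMac. The chains of the peptide exchange factor H2-DM were also higher, H2-DMb1 4.84-fold (adjusted p = 0.00264) and H2-DMb2 16.2-fold (adjusted p = 0.00176). H2-Oa, a modulator of H2-DM, was 20.2-fold higher (36.8-fold without mouse 19, adjusted p = 0.0303, up to 0.113 without mouse 16, 17 or 20). H2-DMa and the processing protease Ctss differed 1.83- and 1.31-fold, overlapped, and missed the threshold without any single mouse and after both other scalings (adjusted p up to 0.123 and 0.12), which leaves 7 of 10 genes after those scalings and 6 to 7 over the fits on 4 mice. Ciita, the transactivator of these genes, read 0, 508, 0, 100 and 250 in Ly6Clo and 0, 0, 0, 26.6 and 0 in Ly6Chi libraries and did not pass (adjusted p = 0.303).

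Class II promoters carry a conserved Y box next to their start, bound by NF-Y in the complex on which CIITA acts. The letters TGATTGG, or CCAATCA on the other strand, which contain a CCAAT box, were found within 250 bases upstream of the first RefSeq start in 5 of the 7 listed genes with an entry and in 7.65% of 27025 promoters. The 120 bases upstream of the start are printed for these 5 genes, all called higher in Ly6Clo MoMac, with the box in capitals (GRCm38.p6, RefSeq). They lie at chr17:34287824-34287943 on the minus strand for H2-Aa, and on the plus strand at chr17:34305747-34305866 for H2-Eb1, chr17:34153071-34153190 for H2-DMb1, chr17:34145129-34145248 for H2-DMb2 and chr17:34092259-34092378 for H2-Oa. Ctss and H2-DMa had no such letters in this window.
H2-Aa: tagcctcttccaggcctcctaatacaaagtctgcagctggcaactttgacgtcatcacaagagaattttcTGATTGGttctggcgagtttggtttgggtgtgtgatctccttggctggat
H2-Eb1: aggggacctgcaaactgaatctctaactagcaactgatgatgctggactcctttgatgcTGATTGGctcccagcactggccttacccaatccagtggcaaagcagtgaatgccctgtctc
H2-DMb1: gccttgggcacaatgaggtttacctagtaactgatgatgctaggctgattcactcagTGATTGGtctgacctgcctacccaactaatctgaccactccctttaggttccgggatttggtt
H2-DMb2: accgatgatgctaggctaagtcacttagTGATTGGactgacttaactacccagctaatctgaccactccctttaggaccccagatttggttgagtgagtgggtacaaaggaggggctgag
H2-Oa: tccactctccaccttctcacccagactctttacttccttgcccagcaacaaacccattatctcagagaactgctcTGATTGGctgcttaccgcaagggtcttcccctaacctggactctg

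Some of the genes named share sequence or position with others. H2-DMb1 and H2-DMb2 share 19.1% and 19.9% of their transcripts as stretches of 75 bases, Chil3 14.2% with Chil4 and others, Ear2 23.4% with its family and Klrb1c 15% with its family, so that their separate values are uncertain. The same holds for Cfb, which shares 81.2% with Gm20547, Itgam 71.7% with Gm49368, Ctsd 35.8% with Gm49369, Stmn1 30.5% with Gm11223 and Pcna 23.7% with Pcna-ps2. H2-Aa, H2-Ab1 and H2-Eb1 lie within the interval that the annotation gives to Notch4, Elane and Prtn3 overlap Tmem259, B2m overlaps Patl2 and Cd247 overlaps Pou2f1, and reads of such neighbours cannot be told apart without the strand.

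Of 9 genes that serve presentation by MR1, the target of Ac-6-FP, and by class I molecules, 2 passed, both higher in Ly6Clo MoMac (background 3.19%), and the list holds no class I heavy chain. The heavy chains H2-K1 and H2-D1, named after their values were seen, were also called, with log2 differences of -1.82 and -1.28. B2m, the light chain of both, was 2.33-fold higher in Ly6Clo MoMac, at 115179 to 171236 against 52129 to 69495 (log2 difference -1.21, SE 0.05, adjusted p = 0.000104). Mr1 itself was near the limit of detection, at 0, 32.8, 40.6 or 76.9 in Ly6Chi and at 0, 33.4 or 71.4 in Ly6Clo libraries, and no difference was detectable at this depth (adjusted p = 0.776). Tap2, a subunit of the peptide transporter, was the second of the 9 genes to pass (2.14-fold higher in Ly6Clo MoMac, adjusted p = 0.0448), and it missed the threshold without mouse 16, 17, 19 or 20 and after both other scalings (up to 0.134 over the mice). Of 7 receptors for cytokines that MAIT cells release, only Ifngr1, a chain of the interferon gamma receptor, passed (1.67-fold higher in Ly6Clo MoMac, adjusted p = 0.0298, up to 0.114 without mouse 16, 17, 19 or 20). Ifngr1 also missed the threshold after upper quartile rescaling, with edgeR and when adjusted for genes detected.

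Genes linked to scar-associated macrophages did not move as a block. Of 11, 4 were higher in Ly6Clo (36.4%, background 3.19%) and 1, Lgals3, higher in Ly6Chi MoMac (9.09%, background 1.34%), with a median of -0.96. Cd9, a tetraspanin, read 15544, 13703, 16783, 18201 and 18680 in Ly6Clo and 717, 722, 1798, 1371 and 1075 in Ly6Chi libraries (14.6-fold, log2 difference -3.95, SE 0.18, adjusted p = 0.000124). Spp1, osteopontin, was 7.93-fold higher in Ly6Clo MoMac (adjusted p = 0.00679), with 1440 to 14232 against 322 to 1064, and Ctsd, a lysosomal protease, 1.88-fold (adjusted p = 0.00162). Cd63, a tetraspanin of granules and lysosomes, was 28.2-fold higher (adjusted p = 0.0121, up to 0.0641 without mouse 16 or 20). Adjusted for genes detected, Spp1 and Cd63 missed the threshold (limma adjusted p = 0.0918 and 0.111).

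Among 10 matrix proteases and inhibitors, Mmp8 was higher in Ly6Chi MoMac and Mmp9 and Mmp14 in Ly6Clo MoMac (background 1.34% and 3.19%). Mmp9, gelatinase B, read 348, 681, 531, 322 and 2158 in Ly6Clo libraries and 5.2 in 1 Ly6Chi library with 0 in the other 4 (log2 difference -8.74, SE 0.71, adjusted p = 0.000908). Mmp14, a membrane collagenase, read 100 to 368 in Ly6Clo libraries and 7.5 in 1 Ly6Chi library (adjusted p = 0.00799, and 0.109 when adjusted for genes detected). Mmp8 and Mmp9 are also members of the neutrophil list. The elastase Mmp12, the collagenase Mmp13 and the inhibitor Timp1 did not pass, with Mmp13 at 151 in the Ly6Clo library of mouse 18 and 0 in the other 9 libraries. Of 5 growth factors tested that act on stellate cells, Pdgfb passed, at 113 to 569 in Ly6Clo libraries and 28.3 in 1 Ly6Chi library (adjusted p = 0.0196, up to 0.0869 without mouse 16, 17 or 19). Pdgfb did not pass with edgeR or when adjusted for genes detected.

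Complement genes were called in both directions. Of 10 tested 5 were higher in Ly6Clo MoMac (background 3.19%) and 2, C3 and Cfp, higher in Ly6Chi MoMac (background 1.34%). C1qb, a chain of C1q, was 4.05-fold higher in Ly6Clo MoMac (adjusted p = 0.0091) and C1qa 6.14-fold (adjusted p = 0.0101). C1qc missed the threshold (adjusted p = 0.194), and mouse 18 was the 1 mouse with more in Ly6Chi MoMac. Cfb, factor B, was 5.33-fold higher, and the receptors C3ar1 and C5ar1 3.23- and 2.50-fold (adjusted p = 0.00916, 0.0109 and 0.0118). Of these, C1qa missed the threshold without mouse 19 or 20 (up to 0.0544), Cfb without mouse 19 (0.0501), C3ar1 without mouse 20 (0.0577) and C5ar1 without mouse 19 or 20 (up to 0.0599). Adjusted for genes detected, none of the 10 genes passed.
Of 7 cytokine genes tested 2 were higher in Ly6Clo MoMac (28.6%, background 3.19%). Il1rn, the antagonist of the interleukin-1 receptor, read 3416, 3820, 5727, 3603 and 10012 in Ly6Clo and 244, 333, 1250, 1131 and 849 in Ly6Chi libraries (6.98-fold, log2 difference -2.95, SE 0.34, adjusted p = 0.00394). Il10 was at 0 in all Ly6Chi libraries and read 335, 1002, 0, 2028 and 1184 in Ly6Clo libraries, and its adjusted p of 0.0465 became up to 0.175 without mouse 16, 17, 19 or 20. Il1b and Tnf did not pass (adjusted p = 0.186 and 0.419).

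Single genes of lipid handling, adhesion and iron storage passed. Of 11 efferocytosis and scavenger receptors Cd36 and Axl were higher in Ly6Clo and Msr1 higher in Ly6Chi MoMac, and of 8 alternative activation genes Retnla, Pparg and Cd209a were higher in Ly6Clo and Chil3 higher in Ly6Chi MoMac (background 3.19% and 1.34%, as for the other counts of these lists). Cd36, a receptor for oxidised lipids and apoptotic cells, read 2729, 3539, 4080, 3605 and 2733 in Ly6Clo and 73.6 to 201 in Ly6Chi libraries (24.4-fold, log2 difference -4.67, SE 0.29, adjusted p = 0.000282). Nr1h3, the oxysterol receptor LXRα, was 7.14-fold higher in Ly6Clo MoMac (adjusted p = 0.00312) and Pparg, a lipid-sensing nuclear receptor, 9.69-fold (adjusted p = 0.0143, up to 0.0742 without mouse 16 or 20), the only 2 of 16 transcription factors of the macrophage lineage to pass. Axl, a receptor for apoptotic cells, was 3.21-fold higher (adjusted p = 0.0143, up to 0.0659 without mouse 17, 19 or 20). Itgal and Itgb2, the chains of LFA-1, were 4.19- and 2.70-fold higher in Ly6Clo MoMac (adjusted p = 0.00415 and 0.00175), which with Itgax makes 3 of 9 integrin chains. Fth1, ferritin heavy chain, was 2.35-fold higher (adjusted p = 0.000491), and Fcgr4, the IgG receptor of Ly6Clo monocytes, 6.66-fold (adjusted p = 0.00798). Slc11a1, an iron transporter of phagosomes, was 2.28-fold higher (adjusted p = 0.0478, up to 0.171 without mouse 16, 17, 19 or 20), which with Fth1 makes 2 of 9 iron genes, and Fcer1g, the signalling chain of Fc receptors, 1.41-fold (adjusted p = 0.01). Zfp36, which destabilises cytokine transcripts, was 1.56-fold higher (adjusted p = 0.0237, up to 0.0973 without mouse 16, 17, 19 or 20) as the 1 of 8 immediate early genes to pass. Slc11a1 and Zfp36 missed the threshold after upper quartile rescaling, and Fcer1g after both other scalings. Adjusted for genes detected, none of the transcription factors, Fc gamma receptor genes and immediate early genes passed. With edgeR 1 of the 2 transcription factors passed, and Zfp36 did not. Retnla, a product of alternative activation, read 3465, 1139, 2501, 12.8 and 9101 in Ly6Clo and at most 27.0 in Ly6Chi libraries, which overlap (adjusted p = 0.0123, up to 0.0711 without mouse 16 or 20).

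**Figure D3:**
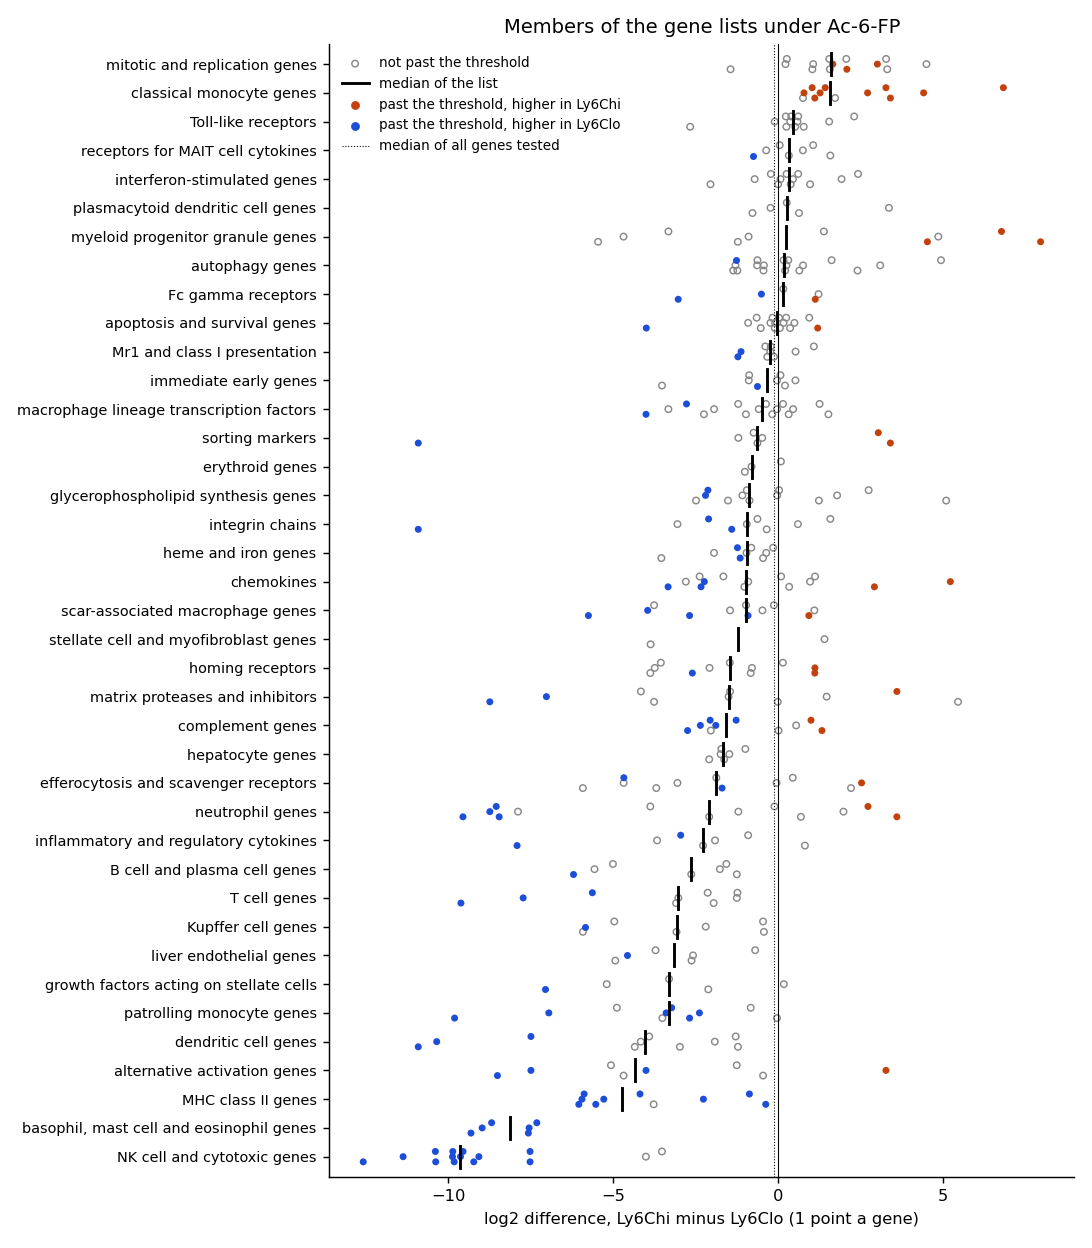
Log2 difference (Ly6Chi minus Ly6Clo MoMac) of each tested member of 39 gene lists, 1 row a list, ordered by the median (black bar), with genes past the threshold filled. Mitotic and classical monocyte genes lie to the right, with medians of 1.62 and 1.59, and MHC class II, basophil and NK cell genes to the left, at -4.73, -8.13 and -9.63.

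Lists for autophagy, cell death, phospholipid synthesis, Toll-like receptors and interferon-stimulated genes were examined next. Of 18 autophagy genes 1 passed (5.56%, background 4.53%), Sqstm1, the cargo receptor p62, at 1750 against 725 in favour of Ly6Clo MoMac (adjusted p = 0.00817), and the median was 0.20. Of 16 apoptosis and survival genes 2 passed (6.25% in each direction, background 1.34% and 3.19%), Bad, a promoter of cell death, 2.25-fold higher in Ly6Chi MoMac (adjusted p = 0.0463) and Bcl2, an inhibitor of it, 10.2-fold higher in Ly6Clo MoMac (adjusted p = 0.0183), with a median of -0.02. Both missed the threshold without mouse 17, 19 or 20, Bad also without mouse 16 (adjusted p up to 0.165 and 0.0837). Of 13 genes of glycerophospholipid synthesis, Lpin1, a phosphatidate phosphatase, and Lpcat2, an acyltransferase, were 4.72- and 4.62-fold higher in Ly6Clo MoMac (15.4%, background 3.19%, adjusted p = 0.0151 and 0.00719), 8 of the 13 had an unadjusted p under 0.05, and Lpin1 missed the threshold without mouse 16, 17, 19 or 20 (up to 0.07). None of these 3 lists had a call when adjusted for genes detected. None of 12 Toll-like receptor genes and none of 12 interferon-stimulated genes passed with limma or edgeR (medians 0.47 and 0.33), with 2 and 0 at an unadjusted p under 0.05. Of the Toll-like receptor genes 2 were called higher in Ly6Chi MoMac after either other scaling.

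Genes that NK cells use to kill were higher in Ly6Clo MoMac. Of 15 NK cell and cytotoxic genes 13 were higher in Ly6Clo MoMac (background 3.19%), with a median difference of -9.63, or -9.07 with genes at 0 in all Ly6Chi libraries set at the limit that 3 reads per library allow. Adjusted for genes detected, limma called 8 of the 15, and Gzma, Gzmb and Klrb1c then missed the threshold (adjusted p = 0.057, 0.0876 and 0.0784). Prf1, perforin, had the largest difference among the genes named by rule, reading 7244, 4893, 6281, 5382 and 7090 in Ly6Clo and 0 in all Ly6Chi libraries, at least 2580-fold higher (adjusted p = 4.38e-05). Gzma, a granule protease, read 37250, 17801, 23125, 18623 and 22229 in Ly6Clo and 0, 1.6, 223, 0 and 82.7 in Ly6Chi libraries (388-fold, 1140-fold without mouse 18, log2 difference -11.37, SE 1.26, adjusted p = 0.00334). The NK receptor genes Klrb1c, Klre1, Klra7, Klrg1 and Ncr1 read between 884 and 11828 in the Ly6Clo libraries and at most 99.9 in the Ly6Chi libraries. Fasl, the death ligand, and Ctsw, a protease of cytotoxic cells, were at 0 in all Ly6Chi libraries and at least 743- and 558-fold higher. The lineage factors Eomes and Tbx21 were low, at 0 to 134 and 0 to 101 in Ly6Clo libraries, and did not pass (adjusted p = 0.219 and 0.202). Of 9 T cell genes tested Lck, Cd247 and Thy1, which NK cells can also express, were higher in Ly6Clo MoMac (background 3.19%, adjusted p = 0.0118, 0.000681 and 0.014, the last up to 0.065 without mouse 16, 19 or 20). Only Cd247 of the 3 also passed with edgeR and when adjusted for genes detected. Cd3d, Cd3g, Cd8a and Cd8b1 did not pass.

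Basophil, mast cell and eosinophil genes followed the same direction. All 6 tested were higher in Ly6Clo MoMac (background 3.19%), with a median of -8.13, or -7.56 with genes at 0 at their limit, and 4 to 6 passed over the fits on 4 mice, 3 with edgeR and 4 when adjusted for genes detected. Cpa3, a protease of mast cells and basophils, read 766, 795, 221, 962 and 789 in Ly6Clo and 0 in all Ly6Chi libraries, at least 295-fold higher (adjusted p = 0.0011). Mcpt8, a protease of basophils, read 80.1 to 2419 against 29.5 in 1 Ly6Chi library (adjusted p = 0.00287), Ms4a2, a chain of the IgE receptor, was at least 185-fold higher (adjusted p = 0.00162) and Prg2, eosinophil major basic protein, at least 271-fold (adjusted p = 0.00169). Ccr3, the eotaxin receptor of eosinophils and basophils, had the second largest difference named by rule, reading 5897, 3251, 5972, 1250 and 17223 in Ly6Clo and 0 in all Ly6Chi libraries, at least 2810-fold higher (adjusted p = 0.00017). This limit rests on the mean, which mouse 20 raised.

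Of 10 dendritic cell genes tested 3 were higher in Ly6Clo MoMac (background 3.19%), with a median of -4.03. Besides Itgax these were Ccr7, the receptor for migration to lymph nodes, at 4158, 654, 10438, 546 and 2630 in Ly6Clo libraries and 9.8 in 1 Ly6Chi library (log2 difference -10.35, SE 1.10, adjusted p = 0.00278), and Cd209a, a lectin of monocyte-derived dendritic cells, at 4369 to 15053 against 0 to 205 (adjusted p = 0.0102). Xcr1, which marks cross-presenting dendritic cells, was at 0 to 304 in Ly6Clo libraries and did not pass (adjusted p = 0.238). Of 13 neutrophil genes, Mmp8 and Cd177 were higher in Ly6Chi MoMac and Camp, Ngp, Retnlg and Mmp9 in Ly6Clo MoMac (background 1.34% and 3.19%). Retnlg, a secreted resistin-like protein, read 43239, 16171, 48275, 11504 and 117062 in Ly6Clo and at most 160 in Ly6Chi libraries (adjusted p = 0.005). The granule genes Camp and Ngp were at 0 in the Ly6Clo library of mouse 16 and between 903 and 5257 in those of the other 4 mice (adjusted p = 0.0446 and 0.0408, up to 0.165 and 0.157 without mouse 17, 18, 19 or 20). S100a8 overlapped between the subsets (log2 difference -0.10, SE 0.59), a direction that turned after upper quartile rescaling (0.06). Cd177 was 5.11-fold higher in Ly6Chi MoMac (adjusted p = 0.0188, up to 0.0805 without mouse 17, 19 or 20).

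**Figure D4:**
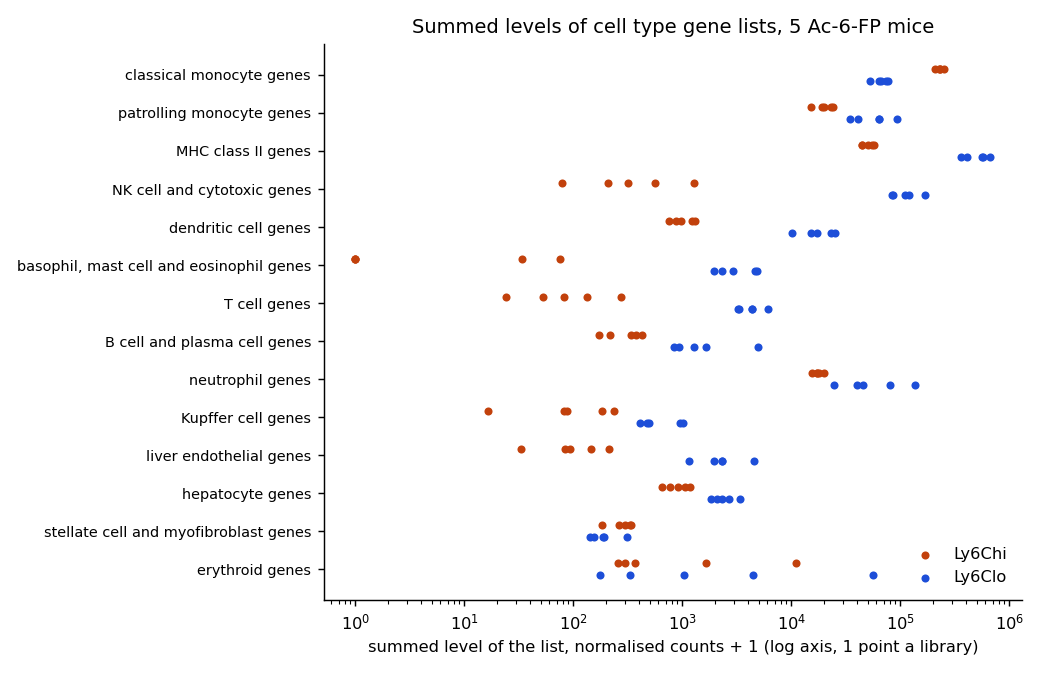
Summed normalised counts + 1 (log axis) of 14 gene lists in each of the 10 Ac-6-FP libraries. NK cell genes sum to 78.1 to 1280.1 in Ly6Chi and 83672.5 to 168706.2 in Ly6Clo libraries, and basophil, mast cell and eosinophil genes to 0 to 74.5 and 1928.2 to 4874.9.

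Summed over the NK cell, basophil, dendritic cell, T cell, B cell, Kupffer cell, endothelial, neutrophil and hepatocyte lists, every Ly6Clo library lay above every Ly6Chi library, which was not so for the plasmacytoid dendritic cell, stellate cell and erythroid lists. Without the most abundant member of each list the neutrophil and endothelial sums overlapped. Without Retnlg the neutrophil genes summed to 15552.7 to 19823.5 in Ly6Chi and 2193.9 to 32573.2 in Ly6Clo libraries, higher in Ly6Clo MoMac in 3 of 5 mice, and without Pecam1 the endothelial genes summed to 0 to 76.5 and 38.1 to 520.3. The 15 NK cell genes summed to 78.1 to 1280.1 in Ly6Chi and 83672.5 to 168706.2 in Ly6Clo libraries, with 7 of them at 0 in all Ly6Chi libraries. For the 7 basophil, mast cell and eosinophil genes the ranges were 0 to 74.5 and 1928.2 to 4874.9, with 4 at 0 in all Ly6Chi libraries, and Epx, eosinophil peroxidase, below the filter. The 10 dendritic cell genes summed to 748.6 to 1292.5 and 10134.7 to 25243.1, and the 11 T cell genes to 22.9 to 271.9 and 3250.7 to 6072.6. Smaller sums went the same way for 8 B cell genes, with 171.8 to 428.5 and 839.5 to 4927.3 and 1 of 7 tested past the threshold (background 3.19% for this and the next lists, Cd79a, adjusted p = 0.0283, up to 0.116 without mouse 16, 17, 18 or 20). The 9 Kupffer cell genes summed to 15.6 to 233.8 and 406.8 to 1002.2, with Il18bp the only 1 of 7 to pass (adjusted p = 0.0346, up to 0.117 without mouse 16, 17, 18 or 19). The 8 endothelial genes summed to 31.9 to 210.6 and 1139.2 to 4549.5, with Pecam1, which Ly6Clo monocytes also carry, as the 1 of 6 to pass (adjusted p = 0.00281, and 0.0589 when adjusted for genes detected). The 13 neutrophil genes summed to 15552.7 to 19983.9 and 24384.4 to 136927.7, and the hepatocyte genes to 647.5 to 1175.3 and 1832.0 to 3339.3. Plasmacytoid dendritic cell genes summed to more in Ly6Chi MoMac in 5 of 5 mice, with overlapping ranges of 678.1 to 1990.0 and 443.1 to 1392.0. Stellate cell genes overlapped at 182.5 to 338.9 and 141.1 to 306.1, as did erythroid genes at 257.3 to 11092.8 and 175.6 to 55447.3. None of 6 hepatocyte genes, 2 stellate cell genes, 3 erythroid genes and 5 plasmacytoid dendritic cell genes passed with limma, with 5, 2, 0 and 2 at an unadjusted p under 0.05. The part of these cell types in the differences of the other gene lists and single genes described here was not tested.

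The same genes were then read in the vehicle mice, which share no library with the Ac-6-FP mice. Of the 213 genes higher in Ly6Chi MoMac 210 (98.6%) had the same direction in the 5 vehicle mice, and of the 508 higher in Ly6Clo MoMac 461 (90.7%) did, against 58.4% of all genes tested. Without mouse 13, whose Ly6Clo library held 5343 genes with a value above 0, these were 208 and 486 (95.7%). The median difference of the genes higher in Ly6Clo MoMac was -2.61 in these 4 vehicle mice, which is not comparable with the -3.38 under Ac-6-FP, since the genes were chosen on the Ac-6-FP values. In the vehicle mice alone 80 of the 15920 genes (0.503%) passed the threshold, 71 of which were among the 721, and 0 passed without mouse 13 with limma, with 1475 at an unadjusted p under 0.05. The NK cell genes had a median difference of -9.74 in the vehicle mice, the MHC class II genes one of -4.67 and the classical monocyte genes one of 1.71, so that the directions of these lists were the same without Ac-6-FP. Other medians turned, such as those of Mr1 and class I presentation (-0.23 under Ac-6-FP, 0.42 with vehicle) and of Fc gamma receptors (0.17 and -0.38). Of the single genes named, Tap2 turned from -1.12 to 2.01, or to 0.44 without mouse 13.

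**Figure D5:**
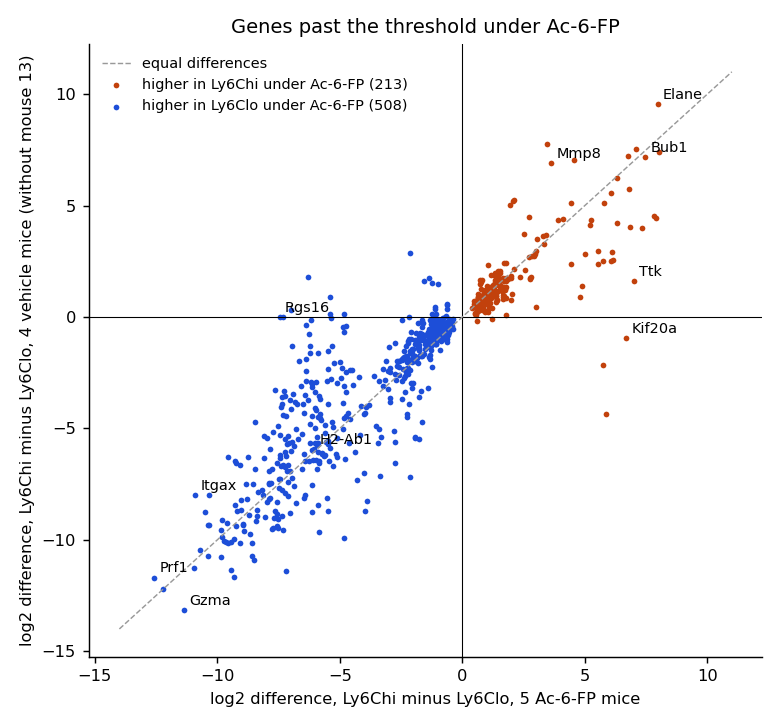
Log2 difference between Ly6Chi and Ly6Clo MoMac of the 721 genes called under Ac-6-FP, in the 5 Ac-6-FP mice (horizontal) and in the 4 vehicle mice other than mouse 13 (vertical). In the 4 vehicle mice 208 of 213 and 486 of 508 genes keep their direction, and Rgs16 lies at 0.

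Whether the subset difference itself changed with Ac-6-FP was tested by comparing the within-mouse differences of 5 Ac-6-FP and 5 vehicle mice. With limma 2 of 15920 genes (0.0126%) passed, and 814 had an unadjusted p under 0.05. One was Rgs16, a regulator that switches off G protein signalling, named here after its values were seen. It read 166, 195, 263, 103 and 189 in the Ly6Clo libraries of the Ac-6-FP mice and 0 in the other 15 libraries of the series, with a difference of subset differences of -7.46 (SE 0.92, adjusted p = 0.0425). The other was a gene with no symbol whose interval on chromosome 1 (mm10, 153739871 to 153749340) spans that of Rgs16 (153740351 to 153745468), with 115 to 232 in the same 5 libraries and 0 elsewhere. Genes with a value above 0 numbered 5343 to 15723 in the vehicle and 11096 to 15766 in the Ac-6-FP libraries, and their part in this result was not tested. Since the intervals overlap and the strand of counting is not given in the sources used here, their reads cannot be told apart. Both calls were lost when any of the 5 vehicle mice was left out (adjusted p of Rgs16 up to 0.361), and Rgs16 within the Ac-6-FP mice (at least 76.6-fold higher in Ly6Clo MoMac, adjusted p = 0.00417) was not called by edgeR or when adjusted for genes detected. For the same difference between treatments, B2m had an unadjusted p of 0.000207, with subset differences of -1.21 under Ac-6-FP and -0.85 with vehicle, and an adjusted p of 0.728.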

How the data were processed

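The authors sorted MoMac by flow cytometry, prepared polyA libraries from low input, aligned reads with STAR 2.4.0 to mm10 per the labels, counted reads on FAST DB genes and deposited normalised counts (signal values, gene counts divided by a DESeq2 size factor). The strand and the handling of reads shared by several genes are not given in the sources used here. In the 10 Ac-6-FP libraries, 99.99% or more of values above 0 were whole multiples of 1 step within 0.006, so that reads were recovered. In the vehicle libraries the lowest share was 99.98%, in the Ly6Chi library of mouse 13. Values were compared as log2(value + 1) in limma 3.58.1 (R 4.3.3) with a mean-variance trend, the mouse as a block and a group mean of 10 or more. Libraries with the same number were taken as 1 mouse from the titles and the paired test of the Methods, although residuals of libraries of an Ac-6-FP mouse correlated by 0.0048 to 0.0872. Self-tests on simulated counts were run. Genes named are members of 39 lists and the 12 largest positive and 12 largest negative differences among genes past the threshold with a symbol, the same direction in 5 of 5 mice and a mean of 100 or more in the higher subset. Comparisons, members and lists were chosen with earlier results of these data known. Of the listed symbols, 7 were not matched and are not analysed here. Alternatives were pseudocounts of 0.1 and 10, other filters and scalings, array weights, a robust prior, a covariate for genes detected, no replicate block, edgeR 4.0.16 and DESeq2 1.42.0 on the recovered reads, and leaving out each mouse. Promoters came from RefSeq (GRCm38.p6), 1 entry per symbol, the first listed. Some listed genes are not reported here.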

Additional observations from a re-analysis of the deposited data

Results flagged for a closer look

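Of 156 sets of 5 within-mouse log2 differences (Ly6Chi minus Ly6Clo MoMac), 22 held a mouse far from the other 4 by Dixon's test, of which chance flags about 1 in 20. Mouse 18 stood apart in 10 of them. Its difference was -0.64 for Pcna, -0.38 for Trem2 and 1.55 for C1qc, opposite in sign to the other 4 mice. It was -0.57 for Fabp4, -3.77 for Gzmb and -7.80 for Cpa3, nearer to 0 than in the others, and 0.00 for Il10. It was -12.61 for Eno3 and -13.25 for Cd209a, further from 0 than in the others. For Mmp13 mouse 18 had -7.24 and the others 0.

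Mouse 20 had differences of 0.00 for Kit, -1.96 for Pdgfb, -5.73 for Ncr1 and 2.14 for Ccnf, all nearer to 0 than in the other mice. Mouse 16 had 0.00 for Ngp, 2.59 for Atrnl1 and 2.92 for Gpld1, nearer to 0, and -11.51 for Klra7, further from 0 than in the others (-10.86 to -10.77). Mouse 17 had 0.85 for Plac8 (others 1.35 to 1.42) and -2.89 for Fcer1a. Mouse 19 had -1.83 for Siglecf and -1.51 for Cd79a.

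The subset difference of Rgs16 differed between Ac-6-FP and vehicle mice by -7.46 (SE 0.92, limma adjusted p = 0.0425).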

How the results depend on the processing

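The number of genes past the threshold was 721 (213 higher in Ly6Chi, 508 in Ly6Clo MoMac). It was 155 (37 and 118) with a covariate for genes detected, 391 with edgeR (235 higher in Ly6Clo MoMac) and 1983 (758 and 1225) with DESeq2, and 372 to 790 (98 to 229 and 274 to 561) when 1 mouse was left out, fewest without mouse 20. Without the replicate block 927 genes passed, 676 of them among the 721. Same-mouse residual correlations of 0.0048 to 0.0872, highest with the mouse's own library in 4 of 5 mice, gave little sign of pairing. In the vehicle mice 0 genes passed without mouse 13, against 80, and 0 to 4 passed for the difference between treatments when 1 mouse was left out, against 2. Of the 122 called genes followed, 52 passed with the covariate, 87 with edgeR and 85 to 114 without 1 mouse, and none changed sign in any of these fits. The cause of these shifts was not tested, and the fits without 1 mouse also had fewer mice.

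Among genes that did not pass, the sign turned for Nr4a1 (quantile 0.08, upper quartile 0.14, covariate 0.15, edgeR 0.03, DESeq2 0.01, and -0.21 to 0.06 without 1 mouse), Ly6g (covariate 0.45, DESeq2 0.01) and S100a8 (upper quartile 0.06, covariate 0.32, and -0.66 to 0.36 without 1 mouse). The log2 difference of Mr1 under Ac-6-FP ranged from -0.21 to 2.64 without 1 mouse. List counts with the covariate and other scalings, sums without a member and folds without 1 mouse were chosen after seeing the data. With low input, a 0 in a library allows 3 reads and low genes rest on few molecules, so that absence cannot be told from loss of RNA in single libraries.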
